A study of Homo sapiens with 7 samples.

Results

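Among 5683 day 11 cells, 59 cells carried cardiac muscle transcripts together with MYH11, the smooth muscle myosin heavy chain, and ACTA1, the skeletal alpha-actin. These 59 cells are called the members here. Each cell's muscle share was the sum of its TNNT2, ACTN2, MYH6 and TNNI1 molecules over all its molecules, and P, the 95th percentile of that share, was 1.95% of the cell's molecules. A member had a muscle share of at least 0.15 of P and at least 1 unique molecular identifier (UMI, a tag that marks 1 captured RNA molecule) of MYH11 and of ACTA1. The members were 1.04% of the library (exact Clopper-Pearson 95% interval 0.791 to 1.34%), out of 15305 cells in the 3 single-cell libraries. They were set beside 3222 muscle cells with a share of at least 0.25 of P and no UMI of either gene, called the muscle cells with neither gene, and beside 1338 cells with a share under 0.10 of P, called the non-muscle cells. A further 169 muscle cells had MYH11 without ACTA1 and 438 had ACTA1 without MYH11.

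All cultures were directed towards heart from H1 cells, a human embryonic stem cell line in wide use. The day 11 library, whose labels give no treatment, is described here, and the day 15 libraries, one given CHIR and one its vehicle DMSO, were read only for the same rule. CHIR (CHIR99021) blocks GSK3 and so turns on Wnt/beta-catenin signalling. The labels give neither its dose nor the day it was added. Each group was 1 library of 1 line, so the study gives no spread between replicates. Intervals below are exact, at the 95% level, and cover counting error only, and no difference between groups has a test.

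In the embryonic heart, cells of the second heart field add muscle to the outflow tract and to the inflow side, and the factor ISL1 marks these progenitors. Young cardiac muscle cells carry several actins and contractile proteins that adult tissue divides among heart, skeletal and smooth muscle. Many of these genes are controlled by the serum response factor SRF, with its partner myocardin, through a short DNA element called the CArG box. ACTA1 is an actin of skeletal muscle that the fetal heart also uses, whereas MYH11 is a late and specific marker of smooth muscle.

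The promoter stretches of ACTA1 and of the genes described below that hold a CArG box are shown because actin and smooth muscle genes are described below. ACTA1 is in every member by the rule, whereas ACTG2 and MYLK were detected in a minority of members. A RefSeq table (GRCh38.p14) held a promoter window for 12 of 17 genes, namely MYH11, ACTA1 and the 15 genes with the highest ratios in members. The 250 bases before the start site of 3 of these 12 genes held the CArG box of 10 bases, which was searched by its consensus on both strands and is printed in capitals. Of all 35116 windows in the table, 407, or 1.16%, held one. A gene was counted if any of its windows held a box, so the count per gene and the share per window are not compared. The letters are a description of the sequence and show no binding.
ACTA1 (chr1:229434095-229434344, minus strand, box starting 97 bases before the start site): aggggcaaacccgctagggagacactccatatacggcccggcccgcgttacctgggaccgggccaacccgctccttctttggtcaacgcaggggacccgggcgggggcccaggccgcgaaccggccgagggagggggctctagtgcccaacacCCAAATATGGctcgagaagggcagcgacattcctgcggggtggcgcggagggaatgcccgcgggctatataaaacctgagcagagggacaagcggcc
ACTG2 (chr2:73892758-73893007, plus strand, boxes starting 110 and 73 bases before the start site): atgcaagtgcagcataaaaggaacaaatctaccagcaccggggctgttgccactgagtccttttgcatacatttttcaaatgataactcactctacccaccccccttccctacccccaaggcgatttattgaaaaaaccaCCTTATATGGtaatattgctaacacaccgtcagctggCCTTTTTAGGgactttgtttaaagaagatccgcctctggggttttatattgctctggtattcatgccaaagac
MYLK (chr3:123620549-123620798, minus strand, box starting 94 bases before the start site): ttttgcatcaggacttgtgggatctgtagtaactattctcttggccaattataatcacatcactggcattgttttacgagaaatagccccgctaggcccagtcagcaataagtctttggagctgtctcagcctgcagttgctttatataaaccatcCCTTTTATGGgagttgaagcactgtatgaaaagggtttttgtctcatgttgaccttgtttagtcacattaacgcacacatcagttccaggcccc

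The library held 75906387 UMIs, with a median of 12689 UMIs per cell. The authors deposited raw UMI counts per gene and cell, and levels below are counts per 1000000 UMIs (CPM), from UMIs summed over a group's cells. Pairs of the 3 libraries shared 3 to 6 cell barcodes. The members were deeper than the muscle cells they were set against, with a median of 16101 UMIs in members, 11530.5 in the muscle cells with neither gene and 16065 in the non-muscle cells. Thinned to 8000 UMIs, members had a median of 3137 genes, between 3409 in the muscle cells with neither gene and 3062 in the non-muscle cells. Scrublet, a caller of doublets (droplets that held more than 1 cell), marked 1 of the 5683 cells and so did not work on this library. By its score, 5 of 59 members and 250 of 3222 muscle cells with neither gene were among the 6% highest in the library, and the members' median percentile was 63.5, against 52.6 for the muscle cells with neither gene and 40.3 for the non-muscle cells. The part that doublets play in the results was not tested.

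The members differed widely in the genes that chose them. MYH11 ran between 1 and 13 UMIs per cell with a median of 3, and 24 of 59 members had 1 or 2. ACTA1 ran between 1 and 448 UMIs with a median of 6. It was at 1 or 2 UMIs in 23 members, at 3 to 9 in 13 and at 10 or more in 23, and the 5 highest cells held 59.0% of the group's ACTA1 UMIs. ACTA1 was detected in every member by the rule, and its level was 2243 CPM in members, 346 CPM in the muscle cells with ACTA1 only and 19.0 CPM in the non-muscle cells. MYH11 stood at 272 CPM in members, 208 CPM in the muscle cells with MYH11 only and 1.54 CPM in the non-muscle cells.

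The cardiac troponin T gene TNNT2 had between 3 and 170 UMIs per member with a median of 55. It was detected in 59 of 59 members, as was TNNI1, the slow skeletal troponin I of the fetal heart, whereas ACTN2, the Z-disc alpha-actinin, was detected in 58 and MYH6, the atrial-type myosin heavy chain, in 57. Sarcomere genes outside the rule were high too: MYL7, the atrial regulatory light chain, stood at 22297 CPM in members, 14114 CPM in the muscle cells with neither gene and 2126 CPM in the non-muscle cells. TTN, the giant spring protein of the sarcomere, stood at 4961, 5865 and 221 CPM in the same groups. All 3 groups were chosen by their share of sarcomere genes, so these levels follow in part from the rule. Of 20 sarcomere genes outside the rule, 6 were at least 1.5-fold higher in members than in the muscle cells with neither gene. Another 4 were lower by that factor, beside 10.9% higher and 36.2% lower among all genes tested. Detection alone says less, since TNNT2 had at least 1 UMI in 65.2% of the non-muscle cells.

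The threshold left few cells near it. The lowest members had muscle shares of 16.2, 22.1 and 24.4% of P, and 56 of 59 were above 25% of P. Just outside, the 3 highest cells with both genes and too low a share had 10.7, 10.5 and 9.87% of P. In all, 63 cells had both genes, and 2 of these were non-muscle cells.

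Detection of ACTA1 and of MYH11 went together in muscle cells with a share of at least 0.15 of P. ACTA1 was detected in 59 of 228 cells with MYH11, or 25.9% (20.3 to 32.1%), against 438 of 3857 cells without MYH11, or 11.4% (10.4 to 12.4%). With every cell thinned to 8000 UMIs, the shares were 26.6% (20.1 to 34.0%) of 169 cells with MYH11 and 9.33% (8.38 to 10.4%) of 3407 cells without it. Free RNA in the droplets gives UMIs in cells that do not express a gene. In 124 endoderm-like cells, which are non-muscle cells with at least 2 UMIs of each of at least 4 endoderm markers and a median of 16424 UMIs, ACTA1 was detected in 24.2%, and in 13.01% after thinning, with 48.8% of its UMIs in 5 of these cells. After thinning it was detected in 7.84% (2.18 to 18.9%) of the endothelial-like cells and in 5.49% (4.31 to 6.87%) of all non-muscle cells. The 9.33% of muscle cells without MYH11 thus lies among the shares of cells that should lack the gene, above that of all non-muscle cells and below that of endoderm-like cells, and how much of it is background cannot be read from these shares. At 10 or more UMIs, ACTA1 was found in 10.1% of muscle cells with MYH11 and in 0.622% of those without. MYH11 was detected in 1 of the 124 endoderm-like cells, or 0.806%.

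**Figure D1:**
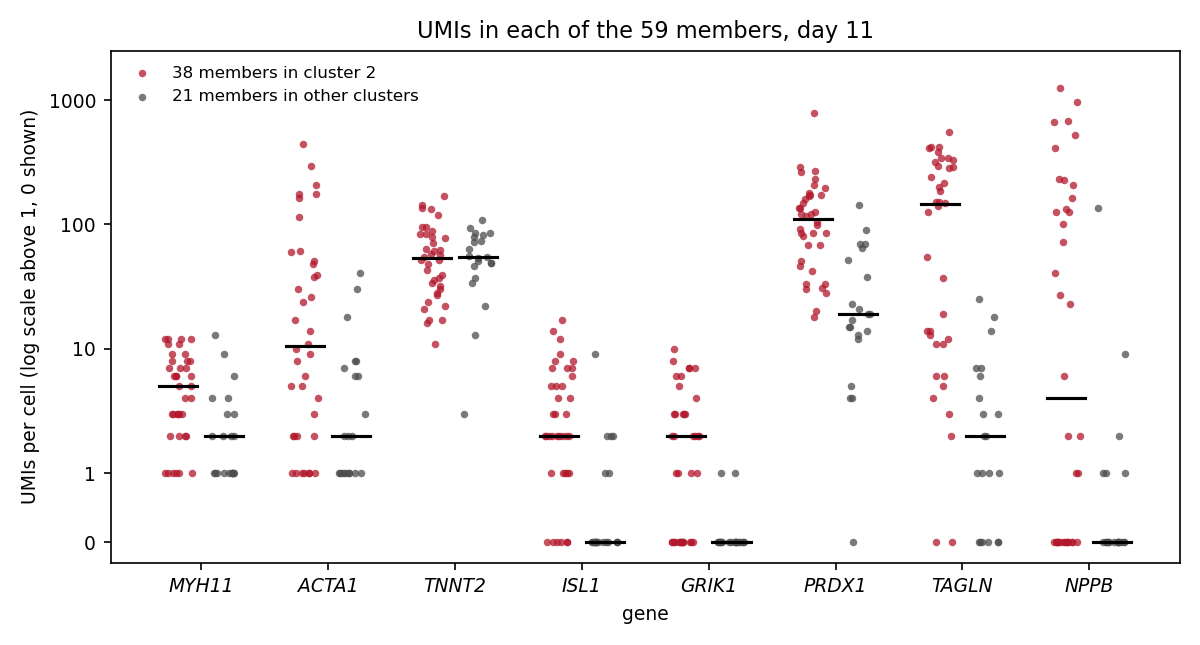
UMIs per cell of 8 genes in each of the 59 day 11 members (vertical axis, log scale above 1 with 0 shown). Points are cells, split into the 38 members of cluster 2 and the 21 members in other clusters, and black lines are medians; ACTA1 spans 1 to 448 UMIs, and NPPB is at 0 in 30 of 59 members.

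ISL1 and GRIK1, which the rule does not use, were named with this population when earlier results of these data were known. Both were higher in members, which describes the population and is no independent support for it. ISL1, the second heart field factor, ran between 0 and 17 UMIs per member with a median of 2 and was detected in 38 of 59 members. Its level was 170 CPM in members (145 to 198), 32.2 CPM in the muscle cells with neither gene (30.4 to 34.1) and 54.4 CPM in the non-muscle cells (51.4 to 57.6), which puts members 5.28-fold above the muscle cells with neither gene (4.46 to 6.21). GRIK1, which encodes a subunit of kainate-type glutamate receptors, ran between 0 and 10 UMIs and was detected in 26 of 59 members. It stood at 94.6 CPM in members (76.4 to 116), 4.83 CPM in the muscle cells with neither gene (4.15 to 5.58) and 13.9 CPM in the non-muscle cells (12.4 to 15.5), a ratio of 19.6 over the muscle cells with neither gene (15.1 to 25.3).

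Both genes were also detected in a larger share of members than of the other cells. At 8000 UMIs, ISL1 was detected in 50.8% of members, 15.4% of the muscle cells with neither gene and 25.2% of endoderm-like cells, and GRIK1 in 35.6% of members, 2.01% of the muscle cells with neither gene and 1.63% of endoderm-like cells. Endoderm-like cells are no measure of background for ISL1, since they had up to 21 UMIs of it in a cell and 71.9 CPM, while 54 endothelial-like cells, chosen in the same way, had 10.8 CPM. ISL1 was also uneven among muscle cells, with 101 CPM in cluster 1 of the clustering described below, which held 636 of the muscle cells with neither gene and 2 members. Without thinning, ISL1 was detected in 64.4% of members, 20.3% of the muscle cells with neither gene and 30.6% of endoderm-like cells, and GRIK1 in 44.1% of members, 2.39% of the muscle cells with neither gene and 3.23% of endoderm-like cells.

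The 2 genes were nested in the members: all 26 members with GRIK1 also had ISL1, 12 had ISL1 alone, none had GRIK1 alone and 21 had neither. With a median of 2 ISL1 UMIs and 0 GRIK1 UMIs per member, a count of 0 does not show that a cell lacks the gene. Of 14 receptor genes with at least 20 UMIs over both groups, 2 were at least 1.5-fold higher in members than in the muscle cells with neither gene and 7 were at least 1.5-fold lower, beside 10.9% higher and 36.2% lower among all genes tested. These shares are too near those of all genes to be a result about the receptors. The AMPA-type subunit GRIA1 was at 12.2 CPM in members and 3.46 CPM in the muscle cells with neither gene, and GRIN2A, an NMDA-type subunit, at 93.6 CPM in members and 98.6 CPM in the muscle cells with neither gene.

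The levels of ISL1 and GRIK1 went with MYH11 more than with ACTA1. GRIK1 stood at 102 CPM in muscle cells with MYH11 only, close to the 94.6 CPM of members, and at 16.7 CPM in muscle cells with ACTA1 only. Few cells set these levels, since 5 of the 169 cells with MYH11 only held 45.6% of that group's GRIK1 UMIs. ISL1 stood at 95.9 CPM with MYH11 only and 33.6 CPM with ACTA1 only. PRDX1, a peroxiredoxin that removes peroxides, was likewise higher with MYH11 only than with ACTA1 only, with 5923 CPM in members, 4555 CPM with MYH11 only, 1709 CPM with ACTA1 only, 1021 CPM in the muscle cells with neither gene and 1349 CPM in the non-muscle cells. Cell by cell, PRDX1 had a median of 70 UMIs in members and 6 in the muscle cells with neither gene, and 31.6% of its UMIs in members came from 5 cells.

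Read the other way, both genes of the rule were found more often in muscle cells with ISL1 and GRIK1 than in those without. Of 152 muscle cells with ISL1 and GRIK1, 26 had both MYH11 and ACTA1, or 17.1% (11.5 to 24.1%), against 21 of 3072 muscle cells without ISL1 and GRIK1, or 0.684% (0.424 to 1.04%). The cells with ISL1 and GRIK1 were deeper, with a median of 16617.5 UMIs against 11640.5 in the cells without them. At 8000 UMIs the shares were 14.4% (7.92 to 23.4%) with ISL1 and GRIK1 and 0.662% (0.399 to 1.03%) without them. MYH11 alone was found in 42.1% of the cells with ISL1 and GRIK1 and in 3.42% of those without.

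**Figure D2:**
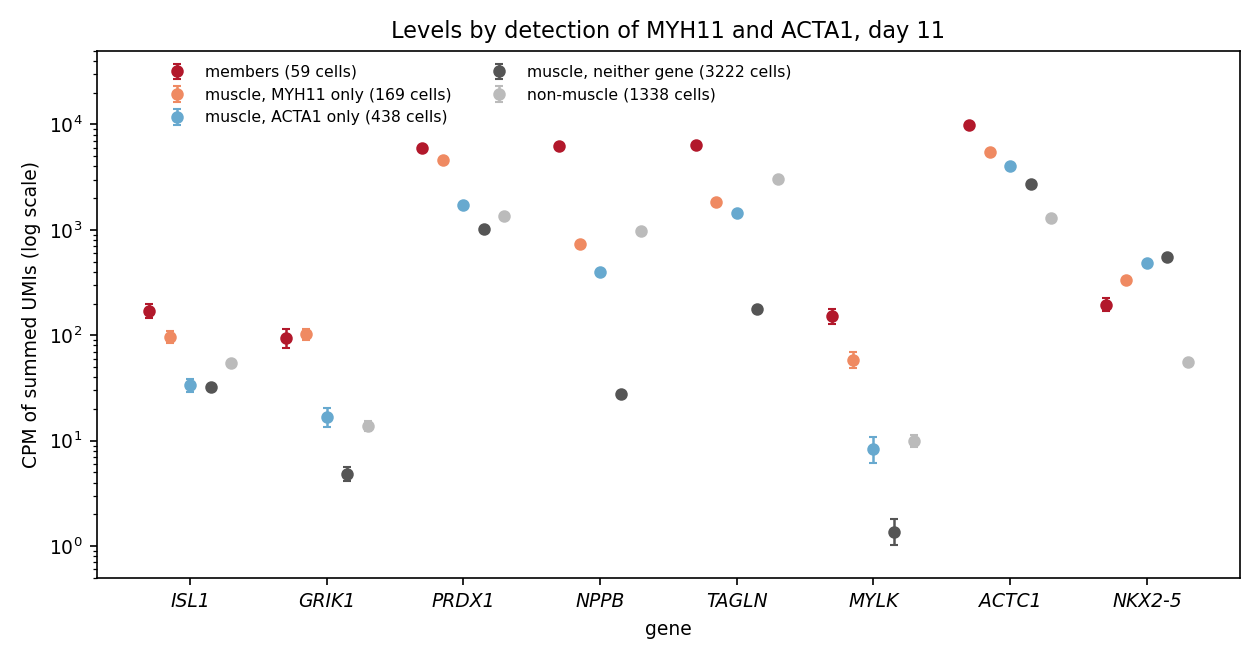
Levels of 8 genes as CPM of summed UMIs (vertical log axis) in members, muscle cells with MYH11 only, with ACTA1 only and with neither gene, and non-muscle cells, day 11, with exact Poisson 95% intervals for counting error. GRIK1 is at 94.6 CPM in members and 102 CPM with MYH11 only, and at 16.7 CPM or below in the other groups; NKX2-5 is at 195 CPM in members and 558 CPM in muscle cells with neither gene.

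Across all genes, members differed from the muscle cells with neither gene in both directions. Of 17748 genes with at least 20 UMIs over both groups, 1934, or 10.9%, were at least 1.5-fold higher in members and 6417, or 36.2%, at least 1.5-fold lower. The lower count holds many sparse genes: 2017 of the tested genes, or 11.4%, had no UMI in the 982995 UMIs of the members. Among 4096 genes with at least 50 CPM in the higher group, 411, or 10.0%, were higher and 683, or 16.7%, lower. The median log2 ratio of all genes was -0.22.

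Smooth muscle genes formed the list with the highest median. Of 15 genes, 12 were at least 1.5-fold higher in members than in the muscle cells with neither gene and none was lower by that factor. Their median log2 ratio was 1.40. TAGLN, the actin-binding protein transgelin, ran between 0 and 560 UMIs per member with a median of 13, and stood at 6370 CPM in members, 177 CPM in the muscle cells with neither gene and 3031 CPM in the non-muscle cells. MYLK, the kinase that switches on smooth muscle myosin, stood at 153 CPM in members, 1.37 CPM in the muscle cells with neither gene and 9.94 CPM in the non-muscle cells. It was detected in 15 of 59 members, or 25.4%, in 11.3% of endoderm-like cells and in 38.9% of endothelial-like cells. Few cells set its level: 1 member held 38 of its 150 UMIs, and its ratio of 111 was 84.7 without that cell. Of the 119 MYLK UMIs in the 38 members with ISL1, 91.6% came from 5 cells.

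ACTA2, the smooth muscle alpha-actin, was at 1544 CPM in members and 236 CPM in the muscle cells with neither gene, and CNN1, the actin-binding calponin, at 324 CPM in members and 47.1 CPM in the muscle cells with neither gene. The remaining 3 genes of the list were nearly level or scarce. MYOCD, the gene of myocardin, stood at 400 CPM in members and 450 CPM in the muscle cells with neither gene. SMTN, the smooth muscle protein smoothelin, stood at 8.14 CPM in members and 8.29 CPM in the muscle cells with neither gene, and KCNMB1, a channel subunit of smooth muscle, had 2 UMIs in all members. The smooth muscle actin ACTG2 had a ratio of 172 (101 to 311) but was detected in only 3 members. Its ratio was 57.8 without the cell that held 51 of its 76 UMIs.

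Of 20 genes of SRF and the actin cytoskeleton, 13 were at least 1.5-fold higher in members and 1 was lower, FHL2, with a median log2 ratio of 1.26. SRF itself differed little, with 26.4 CPM in members and 22.2 CPM in the muscle cells with neither gene. CCN2, a matrix-associated growth factor, stood at 747 CPM in members and 45.4 CPM in the muscle cells with neither gene. Outside the list, TMSB4X, which binds actin monomers, stood at 1193 CPM in members, 135 CPM in the muscle cells with neither gene and 2317 CPM in the non-muscle cells.

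The Z-disc and stretch-response list had 6 of 12 genes higher, 1 lower and a median log2 ratio of 0.87. Its leading gene, NPPB, encodes the natriuretic peptide BNP, which heart muscle releases on stretch. NPPB stood at 6249 CPM in members, 27.9 CPM in the muscle cells with neither gene and 968 CPM in the non-muscle cells, a ratio of 224 over the muscle cells with neither gene (210 to 239). It was concentrated in some cells: 30 of 59 members had no NPPB UMI, 19 had 10 or more, and the 5 highest cells held 66.5% of its UMIs, while at least 1 UMI was found in 33.1% of endoderm-like cells. High NPPB and high ACTA1 met in the same members, since 15 members had at least 10 UMIs of both and 32 had at least 10 of neither. ANKRD1, a stretch-induced protein of the sarcomere, stood at 2933 CPM in members, 231 CPM in the muscle cells with neither gene and 751 CPM in the non-muscle cells, and PDLIM3, a LIM protein of the Z-disc, at 368, 17.2 and 156 CPM in the same order.

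**Figure D3:**
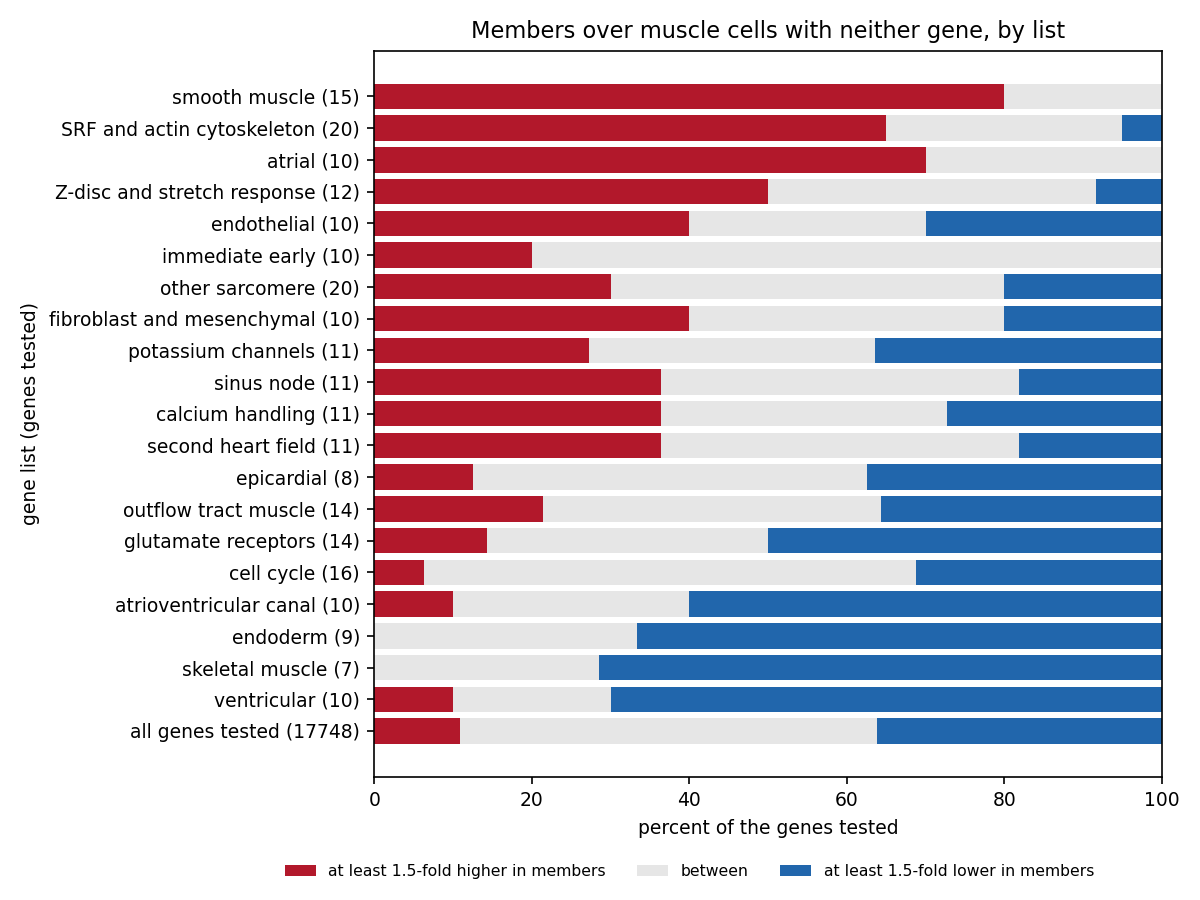
Percent of each list's tested genes (horizontal axis) that were at least 1.5-fold higher in members, between, or at least 1.5-fold lower, against muscle cells with neither gene at day 11, for lists with at least 7 tested genes; the bottom bar is all 17748 genes. Smooth muscle, with 12 of 15 genes higher, stands at the top and ventricular genes, with 7 of 10 lower, just above the bar of all genes.

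Chamber genes divided. Of 10 atrial genes, 7 were at least 1.5-fold higher in members and none lower, with a median log2 ratio of 1.12. They include NR2F2, a factor of atrial identity, at 25.4 CPM in members and 4.51 CPM in the muscle cells with neither gene. NPPA, the atrial natriuretic peptide, stood at 160 CPM in members and 58.9 CPM in the muscle cells with neither gene. Single cells weighed on NPPA, with 39 of the 75 UMIs of members with ISL1 and 33 of the 82 UMIs of members without it. SLN, sarcolipin, an atrial inhibitor of the calcium pump, had a ratio of 23.8, which was 11.9 without the 1 member that held 68 of its 133 UMIs. Of 10 ventricular genes, 7 were lower and 1 was higher, PLN, with a median log2 ratio of -1.16. IRX4 and HEY2, factors of ventricular identity, stood at 8.14 and 3.05 CPM in members, against 76.9 and 35.1 CPM in the muscle cells with neither gene. MYL2, the ventricular light chain, had no UMI in members, where 3 UMIs would be 3.05 CPM, and stood at 2.96 CPM in the muscle cells with neither gene, a difference not detectable at this depth though it counts among the 7.

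Lists of embryonic regions held genes of both directions, with shares that can be set against the 10.9% higher and 36.2% lower among all genes. Among 11 second heart field genes, 4 were higher and 2 lower, with ISL1 among the higher ones. NKX2-5, a core cardiac factor, was among the lower ones, with between 0 and 16 UMIs per member, a median of 1, and 195 CPM in members, 558 CPM in the muscle cells with neither gene and 55.4 CPM in the non-muscle cells. Outflow tract genes had 3 of 14 higher and 5 lower, sinus node genes 4 of 11 higher and 2 lower, and atrioventricular canal genes 1 of 10 higher and 6 lower. The lower share of the outflow tract list is that of all genes, and nothing is read from it. The sinus node factor SHOX2 was found in 1 member. Skeletal muscle genes other than ACTA1 did not go with it, since none of 7 was at least 1.5-fold higher in members and 5 were lower, and MYOG, PAX7 and MYH3 had no UMI in members.

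The 15 genes with the highest ratios, ranked by the interval bound nearest to 1, were NPPB, ACTG2, MYLK, SST, TAGLN, SLN, PDLIM3, GRIK1, CCN2, ANKRD1, HBEGF, RBP7, LIMCH1, ITGA1 and TMSB4X. SST, the hormone somatostatin, owes its place to 1 member that held all of its 638 UMIs, and it is at 0 in the other 58. HBEGF, a ligand of the EGF receptor, stood at 54.9 CPM in members and 3.38 CPM in the muscle cells with neither gene, RBP7, a retinol-binding protein, at 91.6 and 7.10 CPM, and ITGA1, a collagen receptor subunit, at 74.3 and 6.23 CPM, in the same order. At the other end stood IRX4, ESR1, KCNQ5, LRRTM4, CAPN3, HAS2, HPSE2, PPP2R2B, LINC01099, CORIN, COL22A1, SLC27A6, VCAM1, SORCS3 and WNK2, each at least 4.25-fold lower in members. KCNQ5, a potassium channel subunit, stood at 195 CPM in members and 988 CPM in the muscle cells with neither gene. CORIN, the protease that activates atrial natriuretic peptide, stood at 63.1 CPM in members and 279 CPM in the muscle cells with neither gene, and HAS2, which makes hyaluronan, at 72.2 CPM in members and 345 CPM in the muscle cells with neither gene.

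Some genes were higher in members than in both other groups. Of 15674 genes tested against both, 646, or 4.12%, were at least 1.5-fold above each, 2486, or 15.9%, were at least 1.5-fold below each, and 323, or 2.06%, were above each with both intervals above 1. By the smaller of the 2 lower bounds, the first 15 with at least 50 CPM were MYLK, SST, AC147651.1, NPPB, GRIK1, PRDX1, SLN, ANKRD1, CLSTN2, ACTC1, LGI2, VEGFC, WIPF3, CRYAB and GADD45G. ACTC1 ran between 7 and 655 UMIs per member with a median of 103, and stood at 9818 CPM in members, 2710 CPM in the muscle cells with neither gene and 1290 CPM in the non-muscle cells. CRYAB, a small heat shock protein of the sarcomere, stood at 305, 90.5 and 9.30 CPM in the same groups. CLSTN2, a calsyntenin of synaptic membranes, stood at 140, 31.7 and 20.8 CPM in the same groups, and at 148 CPM in muscle cells with MYH11 only. Over the muscle cells with neither gene, the ratio of CRYAB was 3.37, or 2.32 without the member that held 98 of its 300 UMIs. That of VEGFC was 5.33, or 3.14 without the member that held 27 of its 64 UMIs.

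Against the non-muscle cells, 3151 of 16356 genes, or 19.3%, were at least 1.5-fold higher in members and 4961, or 30.3%, lower. The median log2 ratio was -0.04. Among 3961 genes of at least 50 CPM, 857, or 21.6%, were higher and 838, or 21.2%, lower. All 20 of the sarcomere genes outside the rule were higher in members, which the rule sets in part because it split these groups by sarcomere genes. Smooth muscle genes had 10 of 14 higher and 2 lower in that comparison. The list summed to 12741 CPM in members and 6037 CPM in all non-muscle cells. In the 224 non-muscle cells of cluster 2, described below, it summed to 17658 CPM, against 16936 CPM in the members of that cluster. Markers of other cell types were mostly lower in members than in the non-muscle cells, but not all were lower than in other muscle cells. Of 10 fibroblast and mesenchymal genes, 9 were at least 1.5-fold lower than in the non-muscle cells, and LUM, the matrix protein lumican, stood at 10.2 CPM in members, 12.1 CPM in the muscle cells with neither gene and 473 CPM in the non-muscle cells. Against the muscle cells with neither gene, 4 of the 10 fibroblast genes were higher in members and 2 lower. The list's level summed to 1580 CPM in members, 1161 CPM in the muscle cells with neither gene and 4519 CPM in the non-muscle cells. Its median over single cells was 1327 CPM in members (range 0 to 6910), 529 CPM in the muscle cells with neither gene (0 to 12636) and 4102 CPM in the non-muscle cells (0 to 16483). Of the endoderm genes, 10 of 10 were lower than in the non-muscle cells, and AFP, FOXA2, SOX17, APOB and FGB had no UMI in members. Endothelial genes had 9 of 10 lower and cell cycle genes 15 of 16 lower than in the non-muscle cells. Against the muscle cells with neither gene, 4 of 10 endothelial genes were higher in members and 3 lower. Their median log2 ratio was 0.62, and they summed to 165 CPM in members and 150 CPM in the muscle cells with neither gene. By the clustering described below, they summed to 110 CPM in the members of cluster 2 and 281 CPM in the other members. Collagen transcripts were intermediate, with COL1A1 at 411 CPM in members, 241 CPM in the muscle cells with neither gene and 1031 CPM in the non-muscle cells. Their part in the result was not tested.

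The members did not spread evenly over the library. All cells were clustered without the 6 genes of the rule, and 38 of 59 members, or 64.4%, fell into cluster 2, which held 531 of the 5683 cells. Another 13 were in cluster 8, a muscle cluster of 1759 cells, and the other 8 were in 4 further clusters. Among these 8, 2 were in cluster 7, whose leading genes included the endothelial marker ESAM and whose median muscle share was 1.24% of P. These 2 members had shares of 37.3 and 37.9% of P, with 20592 and 20417 UMIs against a median of 13952 in cluster 7. Whether they are doublets was not tested. Cluster 2 was mixed: besides the members it held 224 non-muscle cells, 75 muscle cells with neither gene, 54 with MYH11 only and 52 with ACTA1 only, and its leading genes included ACTG2, NPPB, ACTA1, TAGLN, HBEGF, CCN2 and PDLIM3. At a clustering resolution of 1, the fullest cluster held 24 of 59 members.

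The groups in and out of cluster 2 were built from these same genes, so their levels describe the split and do not support it. The 38 members of cluster 2 had a median of 50.2% of P as muscle share and the 21 others 80.3%. TAGLN stood at 9205 CPM in the members of cluster 2 and 304 CPM in the others, NPPB at 8943 and 482 CPM, ACTA1 at 3079 and 454 CPM, ISL1 at 224 and 54.3 CPM, GRIK1 at 136 and 6.39 CPM, and NKX2-5 at 79.1 and 444 CPM. The high values of members thus come mostly from the 38 cells of cluster 2, and outside it the ratios to the muscle cells with neither gene were 1.69 for ISL1 and 1.32 for GRIK1. The GRIK1 value rests on 2 UMIs, with an interval of 0.774 to 23.1 CPM in these members, against 4.83 CPM in the muscle cells with neither gene.

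The other cells of cluster 2 had some of these genes and not others. Its 224 non-muscle cells had 10412 CPM of TAGLN and 3290 CPM of NPPB, but 22.0 CPM of ISL1, 10.5 CPM of GRIK1, 20.8 CPM of MYLK and 1515 CPM of PRDX1. Its 75 muscle cells with neither gene had 96.6 CPM of GRIK1, 85.0 CPM of ISL1 and 5422 CPM of PRDX1, against 2.04, 30.6 and 887 CPM in the 3147 such cells elsewhere. GRIK1 was detected in 21 of the 75 cells, and 5 of them held 56.5% of its 108 UMIs. So ISL1, GRIK1 and PRDX1 stood well above the level of all muscle cells with neither gene in such cells of cluster 2. TAGLN and NPPB stood high in the non-muscle cells of cluster 2. As for the members, these levels describe the split and do not support it. 

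Among members, NPPB and TAGLN were highest where ACTA1 was highest. In the 23 members with 1 or 2 ACTA1 UMIs, the 13 with 3 to 9 and the 23 with 10 or more, NPPB stood at 267, 1235 and 13552 CPM and TAGLN at 1087, 4910 and 11211 CPM. ISL1 did not follow ACTA1, with 217, 156 and 141 CPM in these 3 bins. By MYH11, ISL1 stood at 112 CPM in the 16 members with 1 UMI, 96.6 CPM in the 20 with 2 to 4 and 263 CPM in the 23 with 5 or more. Depth differed between the bins, with median totals of 14259, 18015 and 18087 UMIs by ACTA1.

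At day 15 the rule, with P of each library, chose 54 of 5607 cells with CHIR, or 0.963%, and 61 of 4015 with DMSO, or 1.52%. ACTA1 in these members was lower than at day 11, with 277 CPM with CHIR and 438 CPM with DMSO, against 2243 CPM at day 11. GRIK1 was nearly absent from all groups at day 15, members or not. It had 0 UMIs in the CHIR members, where 3 UMIs would be 3.04 CPM, and 3 UMIs in the CHIR muscle cells with neither gene. With DMSO it had 1 UMI in members and stood at 0.40 CPM in the muscle cells with neither gene, against 4.83 CPM in such cells at day 11. ISL1 stood at 3.04 CPM in the CHIR members (0.627 to 8.89) and 5.74 CPM in the CHIR muscle cells with neither gene, and at 132 CPM in the DMSO members (110 to 156) and 19.9 CPM in the DMSO muscle cells with neither gene. Thus ISL1 was high in members at day 11 and with DMSO, and near the level of other muscle cells with CHIR.

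PRDX1 followed ISL1, with 1369 CPM in CHIR members and 1009 CPM in CHIR muscle cells with neither gene, and 7152 CPM in DMSO members and 2340 CPM in DMSO muscle cells with neither gene. Of the 15 genes highest at day 11, 6 of 12 tested were at least 1.5-fold higher in members with CHIR, where 11.8% of all genes were, and 13 of 14 with DMSO, where 10.1% were. MYLK had a ratio of 6.36 with CHIR (2.66 to 13.8) and 9.75 with DMSO (6.07 to 15.4), against 111 at day 11. NPPB had ratios of 3.14 with CHIR and 12.03 with DMSO, against 224 at day 11. Of the 15 genes lowest at day 11, 6 of 14 tested were at least 1.5-fold lower with CHIR, where 14.3% of all genes were, and 10 of 15 with DMSO, where 23.2% were. Smooth muscle genes had 4 of 14 higher and none lower with CHIR, and 12 of 15 higher and 1 lower with DMSO. Ventricular genes had 1 of 10 higher and 1 lower with CHIR, and 1 of 10 higher and 7 lower with DMSO.

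**Figure D4:**
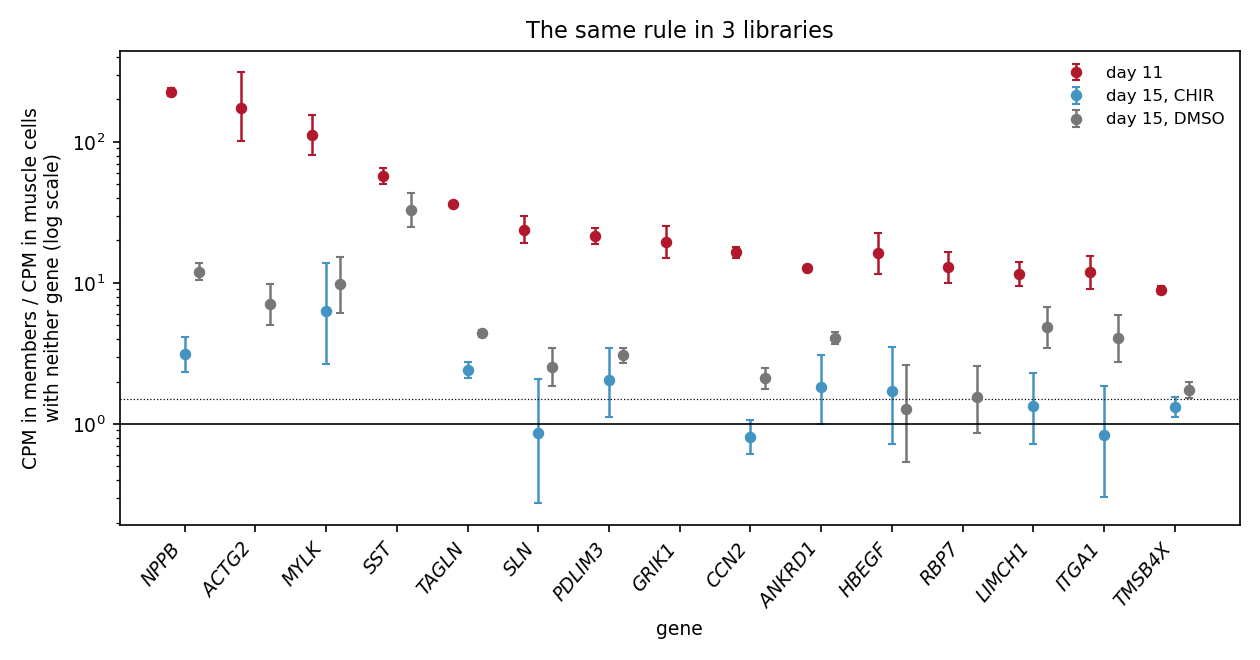
Ratio of CPM in members to CPM in muscle cells with neither gene (vertical log axis) for the 15 genes highest at day 11, in the day 11, day 15 CHIR and day 15 DMSO libraries, with 95% counting intervals. The solid line is 1 and the dotted line 1.5; genes with under 20 UMIs or none in members are not drawn, and SST rests on 1 cell at day 11.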

How the data were processed

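The series' 3 single-cell libraries were used, and its chromatin samples were not used here. Per the labels' protocols, collagenase and Accutase dissociated the cells, live cells were sorted with DAPI, and droplet 3' libraries were made. The protocol of the day 11 sample names day 15. Per the submitters' processing notes, Cell Ranger 6.1.1 and GRCh38 were used, with R 4.1.0 and Seurat 4.3.0 also named for day 11. The authors deposited raw UMI counts per gene and cell. The handling of intron reads was not stated.

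Members, groups, gene lists and the markers ISL1 and GRIK1 were chosen with earlier results of these data known. UMIs were summed over the cells of a group and ratios of CPM given with conditional exact binomial intervals, for genes with at least 20 UMIs over both groups, without the 6 genes of the rule. For log2 ratios, 0.5 was added to each count. Genes were called at 1.5-fold. Named genes were the 15 highest and 15 lowest by the interval bound nearest to 1 with at least 50 CPM in the higher group, the 15 highest above both groups, ISL1, GRIK1 and members of the lists. KCNMB1, FHL2, AFP and other list genes named at low counts were chosen after their values were seen. Cells were thinned once to 8000 UMIs (seed 1). Clusters used scanpy 1.11.5 with 2000 variable genes, 30 components, 15 neighbours and Leiden resolution 0.6, and doublet scores Scrublet at a rate of 0.06. No doublets were removed. The ratio script was checked on simulated counts. Alternatives included TMM factors from edgeR 4.0.16 in R 4.3.3. With 1 library per group no test was made. UMIs of 1 cell are not independent samples of a condition.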

Additional observations from a re-analysis of the deposited data

How the results depend on the processing

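No paired analysis was possible because each group had 1 library and no replicate number. Asking for 2 UMIs of each gene left 33 members. Testing every gene with at least 1 UMI gave 2932 higher and 13589 lower genes against the muscle cells with neither gene, and 4755 higher and 12011 lower against the non-muscle cells. Genes of at least 50 CPM, a filter chosen after seeing the data like the settings on clusters and single cells below, gave 411 higher and 683 lower, and 857 higher and 838 lower. Of the genes called against the muscle cells with neither gene, 23.2% were higher in the values reported and 37.6% among genes of at least 50 CPM. TMM factors, which moved the median log2 ratio to -0.06, gave 2548 higher and 5291 lower genes.

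The ISL1 ratio was 6.40 and the GRIK1 ratio 14.0 against only those muscle cells within the members' interquartile range of UMI totals, 6.95 and 28.1 for members of cluster 2, and 1.69 and 1.32 for members outside it. The ratio of 1.32 rests on 2 UMIs, 6.39 CPM in those members (0.774 to 23.1), so its direction cannot be read; in the other 10 alternatives both ratios were above 1.5. Without the 6% highest Scrublet scores they were 5.62 and 19.8. ACTA1 was detected in 9.33% of muscle cells without MYH11 at 8000 UMIs. At a resolution of 1, 40.7% of members were in the fullest cluster.

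Changes of sign were read only for lists whose reported median was at least 1.5-fold higher or lower. Smaller medians could change sign without being listed here. Among the lists read, the median of neural genes changed sign at 8000 UMIs (0.051), without the filter (1.69) and for members outside cluster 2 (0.18). That of endothelial genes did so without the highest Scrublet scores (-0.067) and for members of cluster 2 (-0.18). For members outside cluster 2, so did those of atrioventricular canal (0.093), skeletal muscle (0.059), endoderm (0.029) and pluripotent genes (0.22). The SST ratio was 0 without its 1 cell. The causes were not tested. With 59 members, a gene at 3 UMIs stands at 3.05 CPM, so sparse genes could not be compared.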

Other observations

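The list counts in this paragraph stand beside 10.9% higher and 36.2% lower among all genes tested. Immediate early genes, often induced when tissue is dissociated, had 2 of 10 genes at least 1.5-fold higher in members than in the muscle cells with neither gene and none lower. ATF3 stood at 52.9 CPM in members and 20.8 CPM in the muscle cells with neither gene, and DUSP1 at 109 CPM in members and 28.9 CPM in the muscle cells with neither gene, while FOS stood at 48.8 CPM in members and 52.8 CPM in the muscle cells with neither gene. Calcium handling genes had 4 of 11 higher and 3 lower. The calcium pump gene ATP2A2 stood at 491 CPM in members and 301 CPM in the muscle cells with neither gene, and the release channel gene RYR2 at 1043 CPM in members and 1589 CPM in the muscle cells with neither gene. Potassium channel genes had 3 of 11 higher and 4 lower, and epicardial genes 1 of 8 higher and 3 lower. Cell cycle genes had 1 of 16 higher and 5 lower. The lower shares of the potassium channel, epicardial and cell cycle lists are near that of all genes, and nothing is read from them.

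BMP4, a growth factor of the outflow tract list, stood at 105 CPM in members, 22.4 CPM in the muscle cells with neither gene and 75.9 CPM in the non-muscle cells. VSNL1, a calcium sensor of the sinus node list, stood at 14.2 CPM in members, 1.90 CPM in the muscle cells with neither gene and 1.13 CPM in the non-muscle cells. AC147651.1 stood at 62.1 CPM in members, 6.97 CPM in the muscle cells with neither gene and 6.63 CPM in the non-muscle cells. SST at day 15 also rested on few members, with 146 UMIs in 2 of the 61 DMSO members and none in the CHIR members.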
